A study of Mus musculus with 4 samples.

Results

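The CXC chemokine cluster of mouse chromosome 5 was represented on the arrays by 7 genes, Cxcl5, Ppbp, Pf4, Cxcl3, Cxcl15, Cxcl1 and Cxcl2, out of 24561 gene symbols. The genes were chosen by symbol and by position near each other on the chromosome, and the cluster itself was selected on the signals of the 4 lines, because several of its members were much lower in every variant line. Its log2 ratios to L1210-control are therefore given as a description, with no test. Of the 7 genes, 4 (Cxcl5, Cxcl3, Cxcl1 and Cxcl2) were lower by more than 3-fold in each of the 3 variant lines, 1 (Ppbp) changed by less than 2-fold in each, and 2 (Pf4 and Cxcl15) gave no signal well above background.

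CXC chemokines are small secreted proteins that attract leukocytes through G protein-coupled receptors. Cxcl1, Cxcl2, Cxcl3 and Cxcl5 carry the ELR amino acid motif, act mainly on the receptor Cxcr2 and are best known for calling neutrophils into inflamed tissue. Their genes are transcribed within hours of an inflammatory stimulus, largely through NF-κB, and their mRNAs are short-lived.

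L1210 is a mouse lymphocytic leukemia line, labelled as DBA subline 212. All 4 lines, the control included, were infected with lentivirus, sorted as GFP+ cells and grown in RPMI 1640 with serum. L1210-control carried the control construct, and L1210-Fbxw11a, L1210-Fbxw11c and L1210-Fbxw11d are labelled as stably transfected for overexpression of 1 Fbxw11 transcript variant each. Fbxw11 is the F-box protein of a ubiquitin ligase that acts on IκB and β-catenin. Total RNA of each line was labelled with Cy3 and hybridised to 1 Agilent mouse array, so each line is 1 sample of 1 sorted population and no difference has a replicate check. The variant lines are called the a, c and d lines, and their values are given in that order.

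The arrays held 59305 gene spots, none of them saturated, and 68.7% to 73.7% of gene symbols were well above background. Signals are fluorescence intensities set to the scale of the L1210-control array through the 75th percentile of each array. Slide 1 carried 3 of the arrays and slide 2 only that of L1210-Fbxw11d, so a slide effect and an effect of this variant cannot be told apart. After scaling, the E1A spike-in RNAs differed from L1210-control by a median of 0.11, 0.16 and -0.58 on the log2 scale in the a, c and d lines (10 probes). Fbxw11 itself was read by 2 probes, whose log2 ratios lay between 0.025 and 0.31 over the 3 lines. No line differed by 2-fold from L1210-control on either, so the probes did not show the labelled overexpression. Whether the inserted sequences contain these probes was not tested, so they cannot decide on the labels. The study measured Fbxw11 in the lines by PCR and western blot, which are not analysed here. Of 16 lymphoid markers, 8 were well above background on all 4 arrays, among them Cd3e, Cd4 and Cd79a, while 7 were on none, among them Cd3d, Cd79b, Ebf1, Rag1, Il7r and Thy1. Which of these markers L1210 should carry was not tested, so the counts are no check of its lymphocytic identity.

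The 7 probes lay on the plus strand of chromosome 5 (mm9) over 144.1 kb. Cxcl5 was read at 91190490 to 91190549, Ppbp at 91198970 to 91199029 and Pf4 at 91202275 to 91202334. Cxcl3 followed at 91216694 to 91216753, Cxcl15 at 91231948 to 91232007, Cxcl1 at 91321845 to 91321904 and Cxcl2 at 91334534 to 91334593. Neighbouring probes were 3.25 to 15.2 kb apart except Cxcl15 and Cxcl1, which were 89.8 kb apart. Each gene had 1 probe of 60 bases on 1 spot, placed in an exon since it was designed on the mature transcript, and no spot of a member was flagged as an outlier. Over the 21 pairs of member probes the longest run of shared bases was 5 to 9 bases, so that no probe held a long stretch of another member's probe.

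The RefSeq promoter table (GRCm38.p6) held 6 of the 7 genes, and it had no entry for Cxcl5. The sequence before the transcription start is shown for 3 of the 4 genes that were lower in every line, because these starts share a run of 11 bases, and for Ppbp, which lies in the same cluster and changed by less than 2-fold. Capitals mark the shared run GGGAATTTCCC and the letters ATAAAA. All stretches are the 120 bases before the start on the plus strand.

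Cxcl1 (chr5:90891125-90891244): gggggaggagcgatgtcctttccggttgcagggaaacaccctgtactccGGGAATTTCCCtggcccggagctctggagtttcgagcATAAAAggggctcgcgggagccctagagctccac
Cxcl2 (chr5:90903779-90903898): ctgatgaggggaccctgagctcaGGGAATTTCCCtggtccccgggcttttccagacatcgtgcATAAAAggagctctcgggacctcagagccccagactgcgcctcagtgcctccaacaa
Cxcl3 (chr5:90785981-90786100): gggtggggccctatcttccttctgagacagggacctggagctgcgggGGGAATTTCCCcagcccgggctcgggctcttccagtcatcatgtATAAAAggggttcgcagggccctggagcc
Ppbp (chr5:90768398-90768517): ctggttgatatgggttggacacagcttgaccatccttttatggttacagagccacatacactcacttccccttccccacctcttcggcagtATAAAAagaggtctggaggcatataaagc

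The shared run began at position -71 in Cxcl1, -97 in Cxcl2 and -73 in Cxcl3, counted back from the transcription start. It was the longest run common to these 3 stretches. On either strand it was found in 14 of 32851 promoters (0.0426%), counted from 250 bases before to 50 after the start. Of the 14 genes with the run, 3 are Cxcl1, Cxcl2 and Cxcl3 themselves. Because the run was defined from these 3 genes, its rarity is no test of a link to their signals. The run contains a match to GGNNTTTCC, a shortened form of the site bound by NF-κB, which was searched on both strands. Cxcl1 had a further match on the minus strand and Cxcl2 a further match on the plus strand. The 3 promoters of Ppbp, Pf4 and Cxcl15 held no match to these letters in this window, and 5.82% of all promoters held one. The letters ATAAAA, a form of the TATA box, stood at -34 in Cxcl1, -57 in Cxcl2 and -29 in both Cxcl3 and Ppbp. They were found on either strand in 18.5% of promoters. These matches describe letters only.

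Cxcl1, which encodes the neutrophil attractant also called KC, had an intensity of 11997 in L1210-control against 793, 1175 and 1181 in the a, c and d lines. Its signal was highest in L1210-control, lowest in L1210-Fbxw11a and nearly the same in the other 2 variant lines. The log2 ratios to L1210-control were -3.92 ± 0.20, -3.35 ± 0.20 and -3.34 ± 0.20, where the error is that of the scanner software for the spots, which leaves out culture, sorting and RNA extraction. These are falls of 15.1-, 10.2- and 10.2-fold.

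Cxcl2, the chemokine MIP-2 that is made at once by activated macrophages, had an intensity of 578 in L1210-control against 41.5, 50.4 and 46.6 in the a, c and d lines. The 3 variant lines were all low and lay close together. The log2 ratios were -3.80 ± 0.23, -3.52 ± 0.22 and -3.63 ± 0.21, or 13.9-, 11.5- and 12.4-fold lower. Because the variant signals were nearer to the lowest well-above-background signals of these arrays (10.4 to 14.9), the SD between spots of probes of like brightness, carried to the ratio, was 0.26 to 0.31 on the log2 scale. With normexp background correction the log2 ratios were -2.57, -2.53 and -2.82.

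Cxcl5, known as LIX and made mainly by epithelial and stromal cells, had an intensity of 4509 in L1210-control against 243, 518 and 427 in the a, c and d lines. As for Cxcl1, L1210-control was highest and L1210-Fbxw11a lowest. The log2 ratios were -4.22 ± 0.20, -3.12 ± 0.20 and -3.40 ± 0.20, or 18.6-, 8.71- and 10.6-fold lower.

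Cxcl3, a further ELR chemokine of the Cxcl1 type, had an intensity of 1552 in L1210-control against 158, 392 and 416 in the a, c and d lines. It was again lowest in L1210-Fbxw11a. Of the 4 genes it kept the largest share of its L1210-control signal in L1210-Fbxw11c and L1210-Fbxw11d. The log2 ratios were -3.30 ± 0.21, -1.98 ± 0.20 and -1.90 ± 0.20, or 9.84-, 3.96- and 3.73-fold lower.

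**Figure D1:**
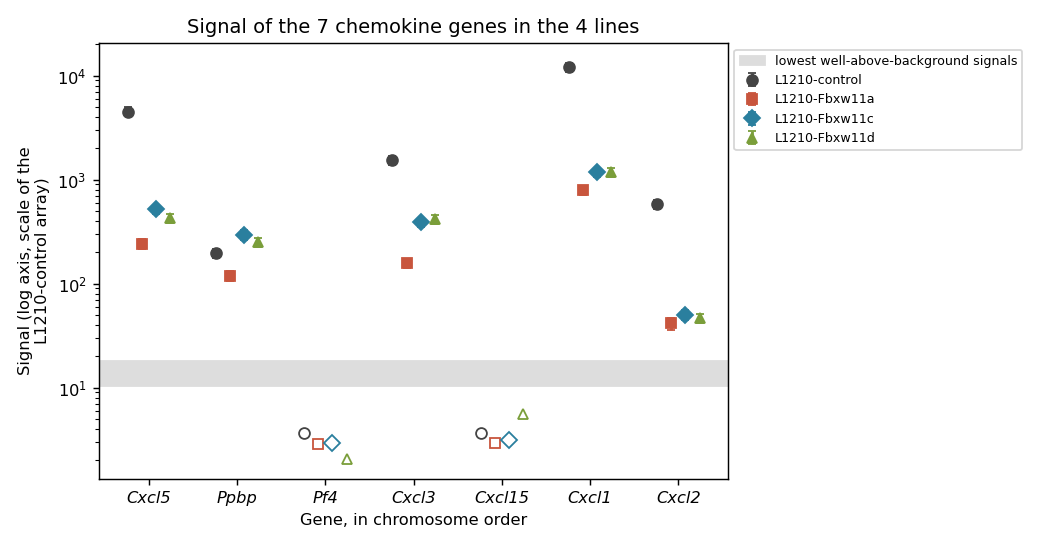
Signal of the 7 chemokine genes (x axis, in chromosome order) in the 4 lines (1 array each), on a log axis in intensity units of the L1210-control array. Bars are the scanner error, open symbols are spots not well above background, and the grey band spans the lowest well-above-background signals (10.4 to 18.1). For Cxcl5, Cxcl3, Cxcl1 and Cxcl2 the L1210-control point stands above the 3 variant lines, while for Ppbp it lies among them.

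Ppbp, which encodes the precursor of the platelet chemokine NAP-2, had an intensity of 196 in L1210-control against 119, 296 and 252 in the a, c and d lines. It was lower than L1210-control in L1210-Fbxw11a and higher in the other 2 lines, with log2 ratios of -0.72 ± 0.21, 0.59 ± 0.21 and 0.36 ± 0.21. These amount to 1.64-fold lower, 1.51-fold higher and 1.29-fold higher, all under the fold change of 2. Its probe lay 8.42 kb from that of Cxcl5.

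Pf4, the platelet factor that is stored with Ppbp products in platelet granules, had an intensity of 3.66 in L1210-control against 2.86, 2.97 and 2.07 in the a, c and d lines. Cxcl15, a chemokine of lung epithelium also called lungkine, gave 3.71, 2.93, 3.17 and 5.62 in the same order. Both were not well above background in any line, and no fold change is given for them.

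At a fold change of 2, 4 of the 7 genes were lower in L1210-Fbxw11a, against 2.06% of the 17935 genes compared there. The same 4 were lower in L1210-Fbxw11c, where 2.31% of 17740 genes were, and in L1210-Fbxw11d, where 4.77% of 18427 genes were. Genes lower in all 3 lines made up 1.39% of 17256. None of the 7 was 2-fold higher in any line, against 2.46%, 1.67% and 1.05% of all genes in the a, c and d lines. Nothing is read from these counts, since the cluster was chosen for them. Over the 5 genes with a ratio the median log2 ratio was -3.80, -3.12 and -3.34, and over all genes compared it was 0.010, 0.020 and 0.043. Ranked from the lowest ratio upward among genes well above background on both arrays of a comparison, Cxcl5, Cxcl1, Cxcl2 and Cxcl3 stood at places 1, 2, 4 and 5 of 16510 in L1210-Fbxw11a. In L1210-Fbxw11c they stood at 5, 4, 2 and 41 of 16416, and in L1210-Fbxw11d at 10, 11, 5 and 103 of 16531. Genes above background on 1 of the arrays have only a bound and are not ranked. All ratios were taken against the same L1210-control array, and a signal peculiar to that array enters every ratio. A fall in total signal also cannot be told apart from a smaller share of cells making these mRNAs.

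**Figure D2:**
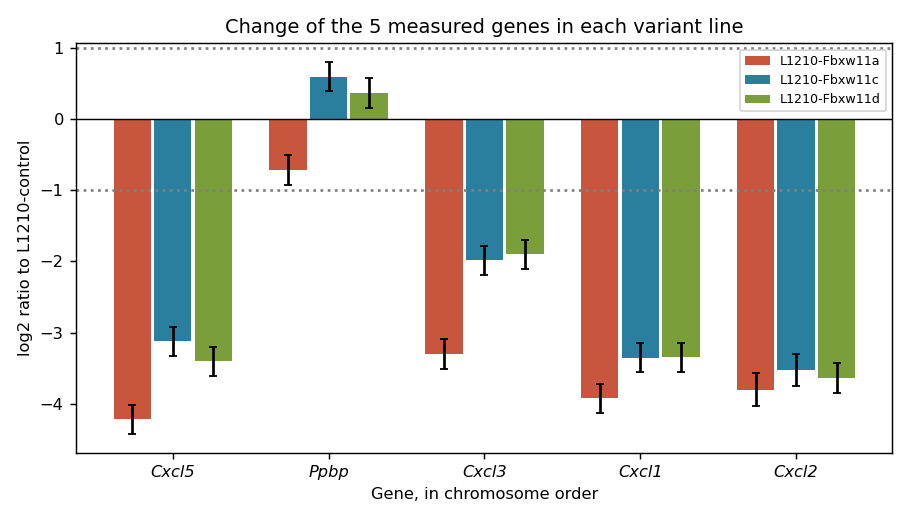
The log2 ratio to L1210-control (y axis) of the 5 genes with a ratio (x axis) in each variant line. Bars start at 0, error bars are the scanner error and dotted lines mark a 2-fold change. The bars of Cxcl5, Cxcl3, Cxcl1 and Cxcl2 all run below -1, and those of Ppbp stay within the dotted lines, downward in L1210-Fbxw11a and upward in the other 2 lines.

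The signals of the variant lines were also set beside each other, where each line is again 1 array. Against L1210-Fbxw11a, the signal in L1210-Fbxw11c was 2.14-fold higher for Cxcl5, 2.49-fold for Cxcl3, 2.48-fold for Ppbp and 1.48-fold for Cxcl1, log2 differences of 1.09, 1.31, 1.31 and 0.57. For Cxcl2 the difference was 0.28. The SD between spots of probes of like brightness, carried to these differences, was 0.098 to 0.16 for the first 4 genes and 0.40 for Cxcl2. It holds no variation of culture, sorting or RNA extraction, so whether the lines differ beyond that variation was not tested. For L1210-Fbxw11d against L1210-Fbxw11a the genes Cxcl5, Cxcl3, Ppbp and Cxcl1 were 1.76-, 2.64-, 2.11- and 1.49-fold higher, and Cxcl2 differed by 0.17 on the log2 scale. These differences, too, depend on the scaling of the array on slide 2. With spike-in scaling the log2 differences of Cxcl5, Cxcl3, Ppbp and Cxcl1 rose from 0.81, 1.40, 1.08 and 0.58 to 1.51, 2.09, 1.77 and 1.27, and that of Cxcl2 to 0.86. On these arrays L1210-Fbxw11a thus had the lowest signal for all 5 measured genes, for Cxcl2 within the spot SD. With normexp background correction Cxcl2 was instead lowest in L1210-Fbxw11d, at a log2 difference of -0.24 to L1210-Fbxw11a. The order of L1210-Fbxw11d and L1210-Fbxw11c depended on the scaling of the array on slide 2. Their log2 differences were -0.28 for Cxcl5, -0.23 for Ppbp, 0.084 for Cxcl3, 0.0077 for Cxcl1 and -0.11 for Cxcl2, and scaling on the spike-in RNAs made them 0.46, 0.51, 0.83, 0.75 and 0.63. No order is given for these 2 lines.

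Probes in the same stretch of chromosome that are no members were examined to see whether the low signals extended beyond the chemokines. Within 1 Mb of the cluster there were 28 other probes, of which 19 were well above background on all 4 arrays, 3 on some and 6 on none. The log2 ratios of the 19 lay between -1.69 and 0.69, and none was 2-fold lower in all 3 lines. Since 1.39% of all genes were, about 0 would be met among 19 probes in any case. Rassf6, the nearest measured gene before Cxcl5, had log2 ratios of -0.078, -0.37 and -0.18 in the a, c and d lines. Beyond Cxcl2, Mthfd2l, an enzyme of folate metabolism, had -0.078, 0.050 and 0.049. The growth factor genes Ereg and Areg, which encode ligands of the EGF receptor, had 0.19, -0.24 and -0.26 and 0.52, 0.052 and 0.10. E330024J20Rik, just past Cxcl2, had -0.49, -0.72 and -0.85, from signals of 30.9 in L1210-control and 22.0, 18.7 and 17.1 in the variant lines.

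Of the 19 probes, 1 changed by 2-fold in a line, where 1.05% to 4.77% of all genes did so in each direction. It carries no gene name, lies between Cxcl15 and Cxcl1 at 91262848 to 91262907 on the plus strand (mm9), and is singled out after its values were seen. Its signal was 86.1 in L1210-control against 50.6, 26.6 and 35.8 in the a, c and d lines, with log2 ratios of -0.77, -1.69 and -1.26. It was highest in L1210-control and lowest in L1210-Fbxw11c.

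**Figure D3:**
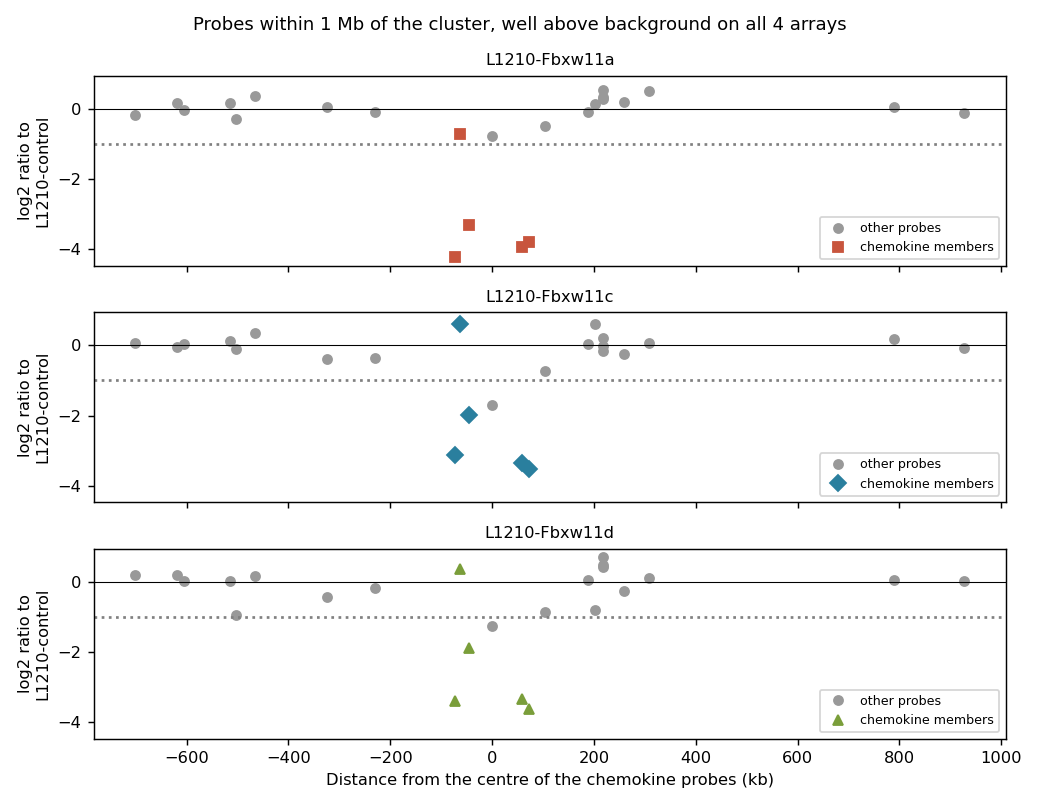
The log2 ratio to L1210-control (y axis) of each probe within 1 Mb of the cluster that was well above background on all 4 arrays, against its distance in kb from the centre of the chemokine probes (x axis), with 1 panel for each variant line. Coloured symbols are the 5 measured chemokine genes, grey circles are the 19 other probes, and the dotted line marks a 2-fold fall. The values below -1 are those of Cxcl5, Cxcl3, Cxcl1 and Cxcl2 and, in L1210-Fbxw11c and L1210-Fbxw11d, the unnamed probe between them.

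Other CXC chemokines were compared from a list of 8. Cxcl16 is a membrane-bound ligand of Cxcr6, and its gene is on chromosome 11. It had signals of 1357 in L1210-control against 450, 625 and 570 in the a, c and d lines. Its log2 ratios were -1.59, -1.12 and -1.25. Of the 3 genes compared in every line (Cxcl10, Cxcl11 and Cxcl16), it alone was 2-fold lower in every line, beside 1.39% of all genes. Cxcl10 and Cxcl11, interferon-induced ligands of Cxcr3, lie on chromosome 5 as well, 1.44 and 1.45 Mb past the Cxcl2 probe. Cxcl10 had log2 ratios of -0.84, -0.60 and -0.91, and Cxcl11 had 0.10, 0.021 and -0.23. Cxcl9, Cxcl13 and Cxcl14 were not well above background in any line and have no ratio.

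Of the receptors, Cxcr2, which binds the ELR chemokines, gave signals of 3.80 to 6.16 and was on no array well above background. Cxcr1 was above it in L1210-Fbxw11a and L1210-Fbxw11d only, with signals of 22.4 and 16.3. The decoy receptor Ackr1 had a signal of 42.3 in L1210-control against 41.6, 45.8 and 100.4 in the a, c and d lines, a log2 ratio of 1.25 in the last. It was the only receptor gene of the 4 on the array that changed by 2-fold, beside 1.05% of all genes higher and 4.77% lower in that line.

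Genes of the signals that induce these chemokines were read from a list of 12. Of these ligands, receptors and adaptors, 9, 9 and 10 were compared in the a, c and d lines, and 0 were 2-fold lower or higher in any line, where the shares of all genes (at most 4.77% in either direction) would also give about 0 calls in so short a list. The median log2 ratios were -0.12, -0.039 and -0.12. The cytokine genes Il1a and Il1b did not rise well above background in any line. Tnf, at a signal of 29.3 in L1210-control, had log2 ratios of 0.14, 0.0033 and -0.40. Il17a, a T cell cytokine gene, had signals of 27.6 in L1210-control and 11.1, 25.2 and 22.8 in the variant lines, and the a line, where it was not well above background, has a log2 ratio of at most -0.94. Tlr2, a receptor for bacterial lipoproteins, had -0.39, -0.55 and -0.45, while the receptor gene Il1r1 had 0.19, 0.40 and 0.46.

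Among 14 transcriptional regulators the median log2 ratios were -0.37, -0.43 and -0.30, and 1 of 13 genes compared, Nfkbia, was 2-fold lower in L1210-Fbxw11a, beside 2.06% of all genes. None was 2-fold lower in the other lines. Nfkbia encodes the inhibitor IκBα, itself a target of NF-κB, and its signals of 43025 in L1210-control and 20610, 24464 and 26422 in the variant lines gave log2 ratios of -1.06, -0.81 and -0.70. The NF-κB subunit gene Relb had -0.81, -0.70 and -0.36, and Nfkb2 had -0.60, -0.63 and -0.36. The nuclear cofactor gene Bcl3 had -0.86, -0.43 and -0.61, and Nfkbiz, which encodes a further nuclear IκB protein, had -0.73, -0.46 and -0.73. Rela, the main activating subunit, had -0.070, -0.088 and -0.25. Fos, of the AP-1 family, was the gene with a positive ratio in every line, at 0.70, 0.33 and 0.20. Apart from the Nfkbia call these differences stayed under the fold change of 2.

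Of 8 genes for decay or stability of short-lived mRNAs, 2 were 2-fold lower in all 3 lines, beside 1.39% of all genes, and the other 6 changed by less than 2-fold in each. Zc3h12a encodes Regnase-1, a nuclease that degrades inflammatory mRNAs, and had signals of 165 in L1210-control against 21.9, 27.6 and 20.8 in the a, c and d lines. Its log2 ratios were -2.92, -2.58 and -2.99. Zfp36, which encodes tristetraprolin, a protein that binds AU-rich mRNAs and speeds their decay, had signals of 78.2, 26.9, 27.5 and 26.4 and log2 ratios of -1.54, -1.51 and -1.56.

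A list of 14 inflammatory genes that are often induced together with these chemokines was described beside the cluster. Of 10 compared, 6, 5 and 5 were 2-fold lower in the a, c and d lines, and 4 (Il6, Csf2, Csf3 and Nos2) in all 3 lines. The shares over all genes were 2.06%, 2.31% and 4.77%, and 1.39% in all 3. Their median log2 ratios were -1.47, -1.03 and -0.93, beside 0.010, 0.020 and 0.043 over all genes. These lists were written with earlier results of the same arrays known, so the counts are no independent evidence of a direction.

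Il6, an acute-phase cytokine, had a signal of 104 in L1210-control against 13.6, 7.68 and 14.4 in the a, c and d lines. The log2 ratios were -2.93 and -2.85 in the a and d lines. Its probe passed the filter in the a line, although the signal lay below the lowest of probes with all spots well above background there (14.4). In the c line the probe was not well above background, and the ratio is at most -2.80. Csf3, the granulocyte growth factor G-CSF, gave 76.3 in L1210-control and was not well above background in the variant lines (signals of 2.77 to 5.76). Its ratios on the log2 scale were at most -2.41, -2.36 and -2.88. Nos2, the inducible nitric oxide synthase, had signals of 2737 in L1210-control and 639, 669 and 579 in the variant lines, log2 ratios of -2.10, -2.03 and -2.24.

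The remaining calls were in single lines or in a pair of lines. Ccl5, an attractant of T cells and monocytes, was 2-fold lower in the a and d lines, with log2 ratios of -1.18, -0.60 and -1.08. Lcn2, an iron-scavenging protein of the acute phase, was so in the c line, with -0.64, -1.22 and -0.53. Ccl7, a monocyte attractant, was so in the a line, with -1.76, -0.13 and -0.18. The other genes compared were under 2-fold in every line. Tnfaip3, which encodes the NF-κB feedback inhibitor A20, had log2 ratios of -0.10, 0.029 and -0.074. Ptgs2, the inducible cyclooxygenase, had -0.87, -0.83 and -0.78. Ccl2, a further monocyte attractant, had -0.78, 0.15 and 0.27. Ccl3, Ccl4, Ccl20 and Icam1 had no spot well above background.

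**Figure D4:**
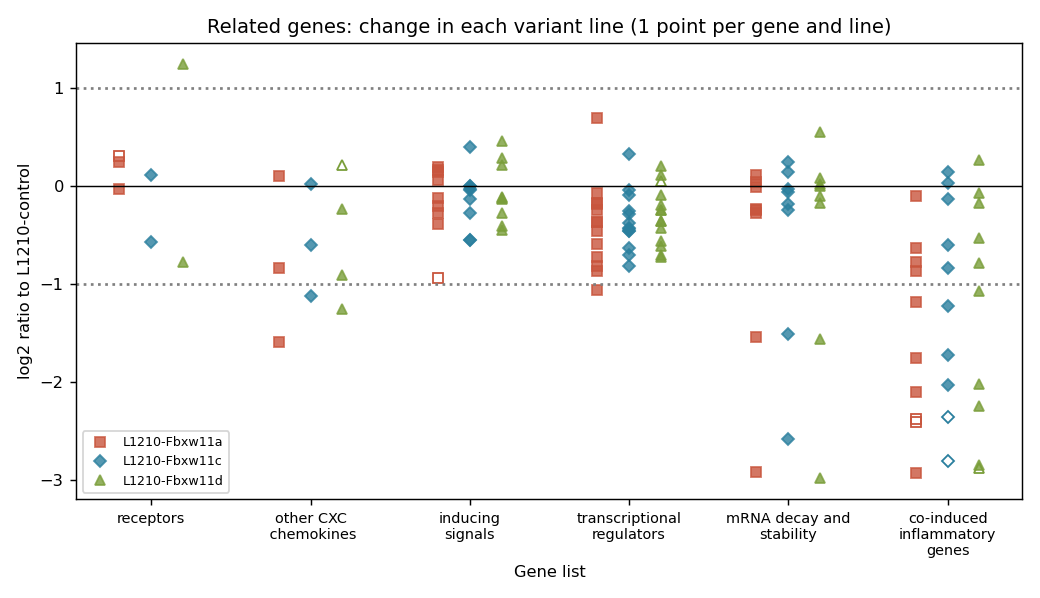
The log2 ratio to L1210-control (y axis) of each gene compared in 6 lists (x axis), with 1 symbol per gene and variant line. Filled symbols are measured ratios, open symbols are bounds for genes not well above background on 1 side, and dotted lines mark a 2-fold change. Values below -1 stand mainly in the list of co-induced inflammatory genes, with Zc3h12a and Zfp36 in the mRNA decay list Cxcl16 among the other CXC chemokines and Nfkbia in the a line among the regulators.

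The promoter letters shared by Cxcl1, Cxcl2 and Cxcl3 were looked up in the promoters of other genes. Of the other genes with the run GGGAATTTCCC, 6 were on the array and 5 were compared (Hpn, Il16, Krtap5-3, Lyzl4 and Zfp84). None was 2-fold lower in any line, beside 2.06%, 2.31% and 4.77% of all genes in the a, c and d lines. At these shares a list of 5 can hardly show a difference, so nothing is read from this count. Lyzl4 was higher in L1210-Fbxw11d, by at least 1.42 on the log2 scale, beside 1.05% of all genes 2-fold higher there. Of the other genes with a match to GGNNTTTCC, 846 were compared in all 3 lines and 15 (1.77%) were 2-fold lower in every one, beside the 1.39% of all genes. Their median log2 ratios were 0.014, 0.024 and 0.038.

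The genes whose 3 ratios lay nearest to the median of the 5 measured members were sought among the 16246 genes measured above background in every line. That median is made of the members' own values, so their closeness to it is built in and only other genes are ranked. Nearest was Sema4f, a semaphorin gene on chromosome 6, at a Euclidean distance of 0.37 on the log2 scale, with log2 ratios of -3.81, -3.44 and -3.52. Next came Gm10732 on chromosome 13 at 0.99, Zc3h12a on chromosome 4 at 1.09, Sh3bgr on chromosome 16 at 1.19 and Gm5447 on chromosome 13 at 1.26. None of the 5 genes named beside the members lies on chromosome 5. The share of the 16246 genes that lie there was not counted, so nothing is read from this about position. The likeness rests on 3 ratios that share 1 control array.

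Marker genes of cells that make these chemokines were read on the same arrays. With 1.05% to 4.77% of all genes called per line and direction, about 0 calls would be met in lists this short, and nothing is read from their counts. Of 12 macrophage and monocyte markers, 8 were well above background on each array and 4 (Lyz2, Fcgr1, Msr1 and Ccr2) on none, with a summed signal of 14759 in L1210-control and 11256 to 12526 in the variant lines. Of these 8, only Csf1r was 2-fold lower in a line, with a log2 ratio of -1.12 in L1210-Fbxw11d. Of 10 neutrophil markers, 6 to 8 were above background on an array, with summed signals of 64416 in L1210-control and 51144 to 66855 in the variant lines, and 0 changed by 2-fold. Most of that sum was Csf3r, with 56408 in L1210-control and log2 ratios of -0.091, 0.068 and -0.38. S100a8 and S100a9, genes of the calprotectin subunits, had 0.21, -0.84 and -0.85 and -0.86, -0.66 and -0.77. Ly6g, with a signal of 5182 in L1210-control, had 0.56, 0.098 and 0.15. The median log2 ratios of the neutrophil list were -0.050, -0.21 and -0.38. Of 12 fibroblast and stromal markers, 6 were above background in L1210-control and 8 or 9 in the variant lines. Their summed signal was 34431 in L1210-control and 33098 to 38713 in the variant lines, most of it from Fn1 (33062 in L1210-control), and Col1a2 was 2-fold higher in all 3. Of 12 platelet and megakaryocyte markers, which bear on Ppbp and Pf4, 4 (Gp1ba, Gp6, Gp9 and Nfe2) were on no array above background, and the summed signal was 799 in L1210-control against 1189, 903 and 932 in the a, c and d lines. In 3 cases a platelet marker changed by 2-fold, Itga2b higher in the a line (log2 ratio 1.89), Itgb3 higher in the c line (1.01) and Vwf lower in the d line (-1.12). Of 5 lung epithelial markers, which bear on Cxcl15, 2 or 3 were above background on an array, with summed signals of 194 to 236. The part of these markers in the chemokine signals was not tested.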

How the data were processed

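The authors deposited the scanner output of each array (Agilent Feature Extraction, 10.7.1.1 in the file headers and 9.1 per the labels) as background-subtracted intensity per spot, and a table of log2 values normalized by the authors with a method not given in the sources used here. Processed signals of the scanner files were divided by the 75th percentile of their array and log2-transformed. Control spots and feature outliers (102 to 167 spots per array) were removed, and replicate spots were averaged. A probe passed as well above background if the share of its spots so flagged was 0.5 or more. A gene was read from its probe of highest mean signal and compared where at least 1 of the 2 arrays was well above background. Where the other was not, the ratio is a bound against the higher of the dim probe's own signal and the lowest signal of probes with all spots well above background (10.4 to 18.1). With 1 array per line, the number of arrays limits the precision, and a fold change of 2 was used without a test.

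The members and lists were chosen with earlier results of these data known. The genes named were all members, those of 6 pathway lists and 6 marker lists, genes within 1 Mb, and the 5 genes nearest in their ratios. Genes with the shared promoter run were added after seeing the data. RefSeq gave promoter sequences. R 4.3.3, limma 3.58.1 (normexp, offset 50), Python 3.11.15, numpy 2.4.6, pandas 2.3.3 and matplotlib 3.10.9 were used. Alternatives were normexp, quantile normalization, median centring, the authors' values, flagged spots kept, the mean of a gene's probes, other filters on dim probes, and thresholds of 1.5 and 3. Scaling on the spike-in RNAs, and the alternatives for ratios between variant lines, were added after seeing the data. The L1210-Fbxw11d array was on a slide of its own.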

Additional observations from a re-analysis of the deposited data

Results flagged for a closer look

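Ppbp moved in opposite directions in different lines. Against L1210-control it was lower in L1210-Fbxw11a (log2 ratio -0.72) and higher in L1210-Fbxw11c (0.59) and L1210-Fbxw11d (0.36). L1210-Fbxw11c stood 1.31 and L1210-Fbxw11d 1.08 above L1210-Fbxw11a on the log2 scale. With normexp background correction these were 0.97 and 0.75, under 2-fold, and with spike-in scaling 1.26 and 1.77. With 1 array per line this difference was not tested, and the ratios to L1210-control were each under the fold change of 2.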

How the results depend on the processing

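The number of chemokine genes at least 2-fold lower was 4 in each line and in all 3 lines under 11 alternatives, except that a threshold of 1.5-fold made it 5 in L1210-Fbxw11a, through Ppbp. Keeping flagged spots and averaging a gene's probes could move no member, since each has 1 unflagged spot, which leaves 9 alternatives that could. Of 75 ratios to L1210-control under the 5 of these that recompute ratios, 0 changed sign and 18 moved beyond the scanner error. With normexp, Cxcl2 had -2.57, -2.53 and -2.82, its largest move. Scaling on the spike-in RNAs shifted the median of all genes in L1210-Fbxw11d from 0.043 to 0.61, and Cxcl3, the least changed of the 4 there, to -1.32. Median centring shifted that median to 0.25, and Cxcl3 to -1.68. Of 25 recomputed ratios each between variant lines, 0 changed sign for L1210-Fbxw11c against L1210-Fbxw11a, 1 for L1210-Fbxw11d against L1210-Fbxw11a (Cxcl2, lowest at -0.24) and 9 for L1210-Fbxw11d against L1210-Fbxw11c, all of ratios under 2-fold. No replicate could be left out, and no paired analysis was possible because each line has 1 array. Pf4 and Cxcl15 were below what these arrays measure.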
